A study of Mus musculus with 30 samples.

Results

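The genes described here are targets of the transcription factor NRF2 and genes of the glutathione system, taken as a list of 41 gene symbols. A gene was measured where the array had a probe set with that single symbol. Where there were several, the brightest on average stood for the gene. This gave 38 measured genes among 17097 genes on the array. The other 3, Keap1, Gsta3 and G6pdx, were not analysed here. Of the 38 genes, 36 had a mean at or above the median gene (4.90, log2 intensity), and Gpx2 and Slc7a11 lay below it. No gene was removed for low intensity.

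Liver tissue outside tumours was profiled in 30 mice, 1 array per mouse. Healthy livers came from 5 mice on chow, which carry vehicle as their treatment label. All other mice ate CD-HFD, a high-fat diet deficient in choline that models steatohepatitis and the liver cancer (HCC) that follows it. Among these, 5 mice received vehicle and are labelled without HCC, and 4 received vehicle and developed HCC together with fibrosis. Sulindac, an inhibitor of cyclooxygenases, was given to 10 mice. Aspirin with clopidogrel (an inhibitor of cyclooxygenase joined with a blocker of the platelet receptor P2Y12) was given to 6. Both drug arms were prevention. The labels give no strain, age, sex, dose, duration, collection time or batch. The mouse titles name fibrosis only together with HCC. HCC and fibrosis therefore cannot be told apart between the vehicle groups, which are called with and without HCC below. Mice are named by their titles, in which Veh_low means vehicle free of HCC, Veh_high means vehicle bearing HCC, and Hlth, Sulin and AspClo stand for the chow group and the drug arms. In whole tissue, a change in the share of a cell type and a change in RNA per cell cannot be told apart. All levels below are log2 intensity and all changes are differences of log2 means, so a change of 1 is a doubling.

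Several arrays stood apart from their groups. Over the brighter genes, Hlth_1798 and Hlth_1807 lay nearer the vehicle mean than the mean of the other healthy mice, and Veh_low_794 and Veh_low_1819 lay nearer the healthy mean. In the aspirin with clopidogrel arm, 4 of 6 mice (AspClo_61, AspClo_64, AspClo_58 and AspClo_63) had Xist at 10.95 to 11.21, against 4.55 to 5.03 in the other 26 mice. The same 4 mice had the Y-linked transcript Eif2s3y at 4.14 to 5.21, against 8.37 to 9.14 in the others, a pattern of female liver that was noticed after the data were examined. Their summed female-biased liver genes reached 9710 to 11300 (linear intensity, 6 genes), against at most 4240 elsewhere. Sex and drug treatment cannot be told apart in these 4 mice. The changes of this arm that passed the test, and others described in detail, are therefore also given from AspClo_60 and AspClo_62 alone. Over the brighter genes, this pair lay nearest the mean of vehicle without HCC, at distances of 0.0128 and 0.0106. Their distances to the mean of the other mice of their arm, most with high Xist, were 0.0174 and 0.0171. The 4 mice with high Xist lay nearest their own arm (0.0078 to 0.0111). Some vehicle and sulindac mice also lay nearest another group. The defining hepatocyte genes were bright in every group (10 of 10 measured genes above the median gene, summed intensity 70400 to 82100). Summed red blood cell genes (5 measured) were 10900 to 15100 in the drug arms and 3290 to 10900 in healthy and vehicle livers. Summed clock genes (11 measured) were 1610 to 5170 in the drug arms and 1230 to 4680 in the other livers. The sum hides opposite shifts of single genes. Mean Dbp was 5.41 in healthy livers, 4.88 in vehicle without HCC, 7.29 with HCC, 8.87 with sulindac and 7.97 with aspirin and clopidogrel. Mean Cry1 was 8.31, 8.23, 6.04, 5.70 and 6.20 in the same order. The Dbp mean with HCC hides a split, at 4.6 in Veh_high_798, 4.37 in Veh_high_1770, 10 in Veh_high_1831 and 10.2 in Veh_high_2088. The part of collection time, which the labels do not give, was not tested.

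NRF2, encoded by Nfe2l2, is held in the cytoplasm and marked for degradation by KEAP1. Electrophiles and oxidants release it from KEAP1, and it then binds antioxidant response elements together with small MAF proteins. Its targets make glutathione, reduce quinones and peroxides, attach glutathione to reactive compounds, supply NADPH and break down heme. In hepatocytes many of these enzymes are abundant at rest, and the glutathione S-transferases also respond to nuclear receptors and to growth hormone pattern.

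The core of the antioxidant response element was sought as TGACNNNGC on both strands of RefSeq promoter windows (GRCm38.p6, 250 bases before to 50 after the start). Of the 33 measured members with a promoter entry, 9 held it (27.3%), against 14.0% of 27025 genes and 14.8% of 17491 protein-coding genes. By window it was in 22.7% of 44 member promoters and in 12.4% of 32851 promoters. The looser TGANNNNGC was in 60.6% of members and 45.0% of genes. The 9 genes were Nfe2l2 itself, Gclm, Txnrd1, Srxn1, Prdx1, Ugdh, Pgd, Mgst1 and Abcc4. A match describes letters only. The 250 bases before the start are shown for 5 of them, the regulator and 4 enzymes whose levels are followed below, 5′ to 3′ on the gene's strand, with each match in capitals. The windows are chr2:75704664-75704913 (minus strand) for Nfe2l2, chr3:122245307-122245556 (plus strand) for Gclm, chr10:82858956-82859205 (plus strand) for Txnrd1, chr4:116685349-116685598 (plus strand) for Prdx1 and chr5:65435843-65436092 (minus strand) for Ugdh.
Nfe2l2: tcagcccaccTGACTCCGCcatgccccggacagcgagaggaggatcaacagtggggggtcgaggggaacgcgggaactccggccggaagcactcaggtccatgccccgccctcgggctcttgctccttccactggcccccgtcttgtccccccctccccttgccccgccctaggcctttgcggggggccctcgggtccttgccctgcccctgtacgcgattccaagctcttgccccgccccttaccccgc
Gclm: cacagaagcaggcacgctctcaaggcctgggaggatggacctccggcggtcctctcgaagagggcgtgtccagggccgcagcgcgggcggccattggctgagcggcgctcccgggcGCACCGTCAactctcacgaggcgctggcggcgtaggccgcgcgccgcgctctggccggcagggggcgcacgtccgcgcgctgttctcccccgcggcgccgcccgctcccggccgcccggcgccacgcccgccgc
Txnrd1: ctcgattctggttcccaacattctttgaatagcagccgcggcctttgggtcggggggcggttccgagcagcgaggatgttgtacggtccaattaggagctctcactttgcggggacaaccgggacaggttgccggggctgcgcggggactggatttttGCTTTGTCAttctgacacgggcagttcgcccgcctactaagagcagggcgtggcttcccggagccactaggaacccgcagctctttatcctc
Prdx1: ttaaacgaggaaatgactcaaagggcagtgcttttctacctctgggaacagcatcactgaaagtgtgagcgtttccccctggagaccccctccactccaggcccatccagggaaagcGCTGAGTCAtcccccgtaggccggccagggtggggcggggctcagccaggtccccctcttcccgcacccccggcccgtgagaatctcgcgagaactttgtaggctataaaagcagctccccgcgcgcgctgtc
Ugdh: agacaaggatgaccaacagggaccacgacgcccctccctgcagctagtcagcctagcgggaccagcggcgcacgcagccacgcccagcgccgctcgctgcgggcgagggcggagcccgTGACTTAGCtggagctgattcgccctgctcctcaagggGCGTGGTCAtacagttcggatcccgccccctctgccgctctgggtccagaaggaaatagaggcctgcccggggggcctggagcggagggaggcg
Prdx1 carries TGACTCAGC, read on the opposite strand, with its match at position -133 counted from the start. Ugdh, the UDP-glucose dehydrogenase that makes the donor for glucuronidation, carries matches at -132 (TGACTTAGC) and -94. The remaining matches in Gclm, Txnrd1 and Nfe2l2 lie at -134, -92 and -240.

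Few members passed the test in any comparison. An adjusted p under 0.05 from limma, adjusted over all 17097 genes within a comparison, was the threshold. Between vehicle and healthy livers 0 of 38 members passed (0.0117% of all genes passed), and between vehicle with and without HCC 0 passed (0.0877%). At an unadjusted p under 0.05 the counts were 2 (all genes 6.73%) and 4 (8.87%) members. With sulindac, 1 member rose and 0 fell against vehicle (0.199%). With aspirin and clopidogrel, 1 member rose and 4 fell against vehicle (1.96%), and against sulindac 1 fell (0.877%). At an unadjusted p under 0.05 sulindac had 4 members (10.4%), aspirin with clopidogrel had 12 against vehicle (14.6%) and 12 against sulindac (10.8%).

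The members' median change was -0.039 between vehicle and healthy and -0.009 between vehicle with and without HCC. It was -0.045 for sulindac and -0.246 for aspirin with clopidogrel against vehicle, where 30 of 38 members were lower in mean, and -0.093 between the drug arms. The median over all genes ran from -0.008 to 0.007 in these comparisons. From AspClo_60 and AspClo_62 alone, the members' median against vehicle was -0.173, with 28 lower, and 0 members passed (7 of all genes passed). Within that arm, the 4 mice with high Xist all lay below AspClo_60 and AspClo_62 in 9 members (10.6% of all genes) and above them in 10 (13.9%). The members were brighter than most genes. Among genes at or above the median gene mean, 3.42% passed for aspirin with clopidogrel against vehicle and 0.363% for sulindac.

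**Figure D1:**
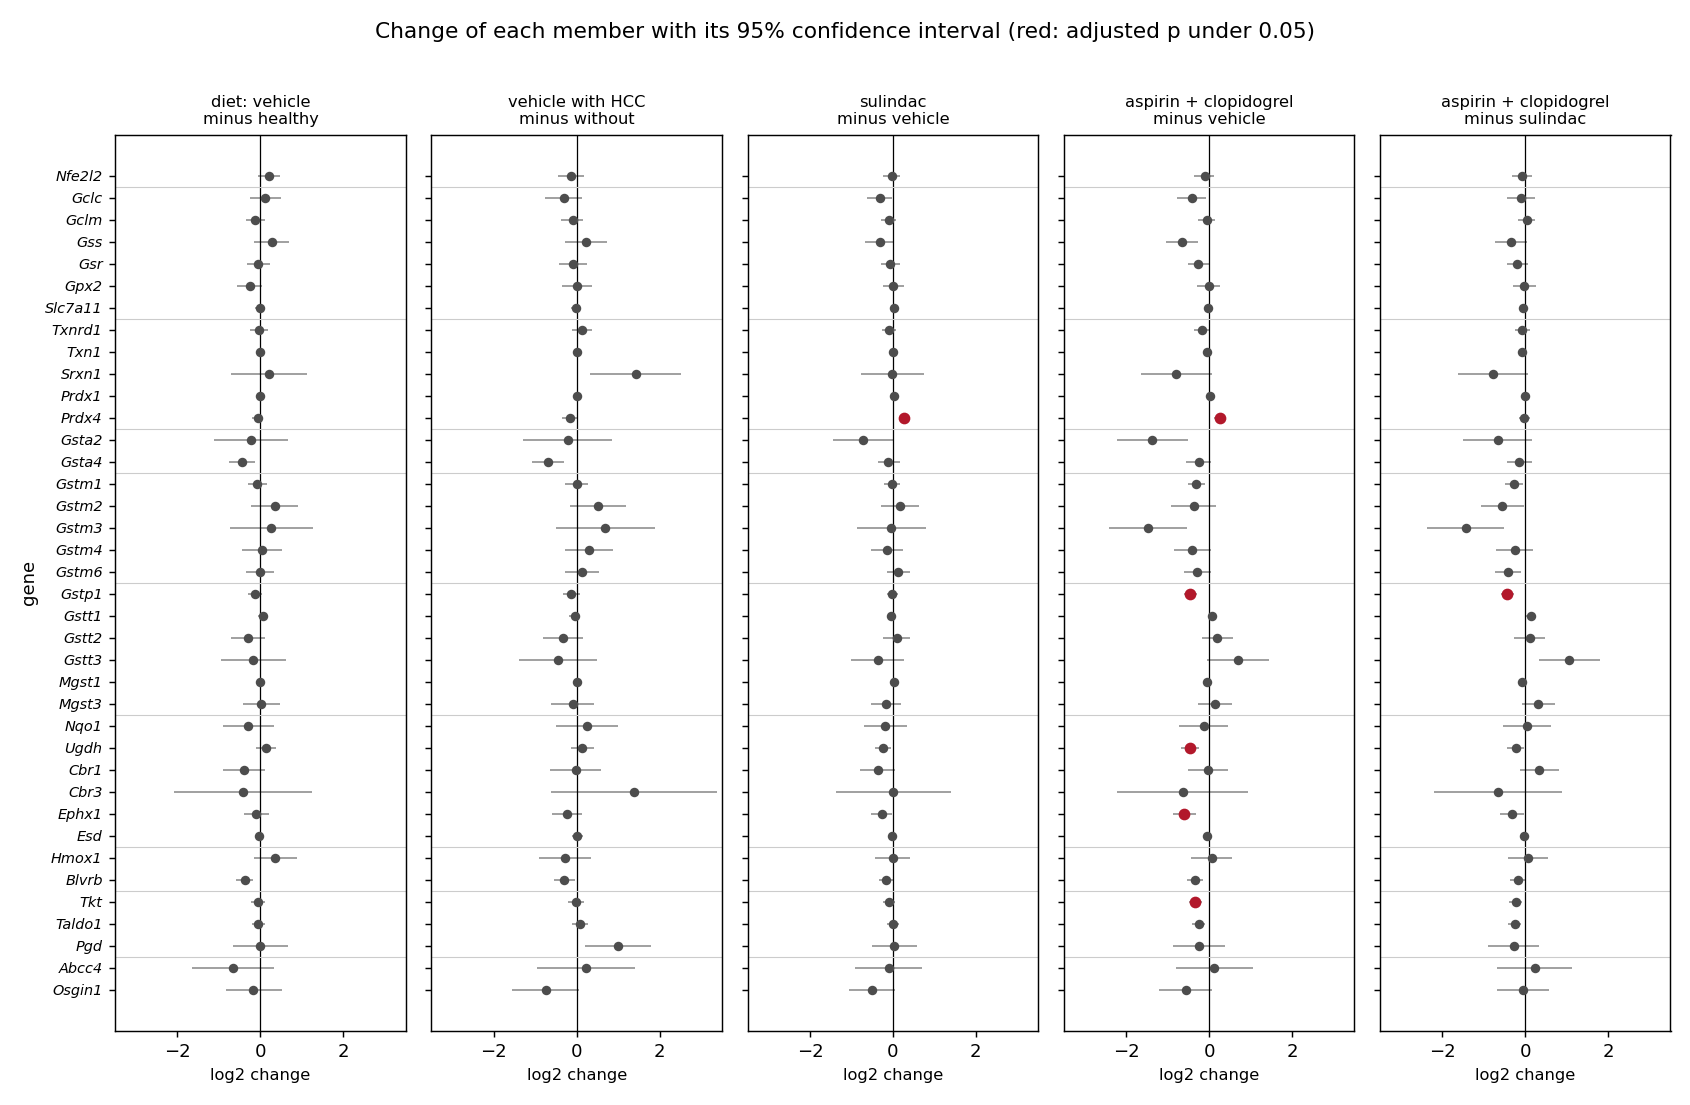
Change in log2 intensity of each of the 38 members (rows, grouped by role) in the 5 main comparisons (panels), with 95% confidence intervals, and members past adjusted p 0.05 in red. A total of 5 members are red for aspirin with clopidogrel against vehicle, 1 for sulindac against vehicle and 1 between the drug arms.

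The largest departures in these genes belonged to 1 mouse rather than to a group. Hlth_1798, a chow-fed mouse labelled healthy, was the highest of all 30 mice in 27 of 38 members, a pattern noticed after the data were examined. No value in the files checks its label, and it was kept in the healthy group as labelled. It was the highest mouse in 6.07% of all genes and in 8.35% of the brighter genes. In 16 members it lay more than 1 log2 unit above the mean of the other 4 healthy mice, as it did in 2.1% of all genes. Among all genes ranked by this distance, the carbonyl reductase Cbr3 was at rank 1, the export pump Abcc4 at rank 5 and the sulfiredoxin Srxn1 at rank 6.

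Nqo1, the quinone reductase often used as a readout of NRF2, was 8.59 in Hlth_1798 and 6.10 to 6.43 in the other healthy mice, a ratio of 5.12 to their mean. The next highest of all mice, Veh_high_798, had 7.04. Cbr3 was 11.16 in Hlth_1798 and 5.12 to 6.10 in the other healthy mice, a ratio of 46.4. Elsewhere Cbr3 stood out in Veh_high_798 (8.97), Sulin_18 (8.36), AspClo_61 (8.18), Sulin_21 (7.98) and Sulin_26 (7.88), while the group medians were 5.25 to 6.63. Srxn1 was 10.62 (ratio 12.8), Abcc4 8.89 (ratio 16.6), Gstm3 12.25 (ratio 4.67), Osgin1 10.98 (ratio 3.72) and Pgd 11.05 (ratio 3.43). The regulator's own transcript stood apart less, with Nfe2l2 at 10.16 in Hlth_1798 and at most 10.19 in the other healthy mice. The theta-class transferases ran the other way. Gstt3 was 7.94 and Gstt2 was 9.48 in Hlth_1798, ratios of 0.386 and 0.527.

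Other pathway genes moved less evenly in this mouse. Of 34 other NRF2 targets measured, 7 were highest of all mice in Hlth_1798, led by the heme transporter Slc48a1 (8.65 against 6.58 to 6.97 in the other healthy mice). Of 32 other glutathione enzymes 3 were highest there, and of 14 NRF2 partners 0. The same liver had summed macrophage and monocyte genes of 4680 (9 genes, linear intensity), against 1050 to 2450 in the other healthy livers, and 7 of the 9 genes were highest of all mice in it. Summed Kupffer cell genes were 10300 against 3810 to 5020, though only 4 of the 7 genes lay above all other healthy mice and 2 lay below them. Summed male-biased genes were 9350 against 17800 to 22700. The part of these gene sets in the pattern was not tested.

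**Figure D2:**
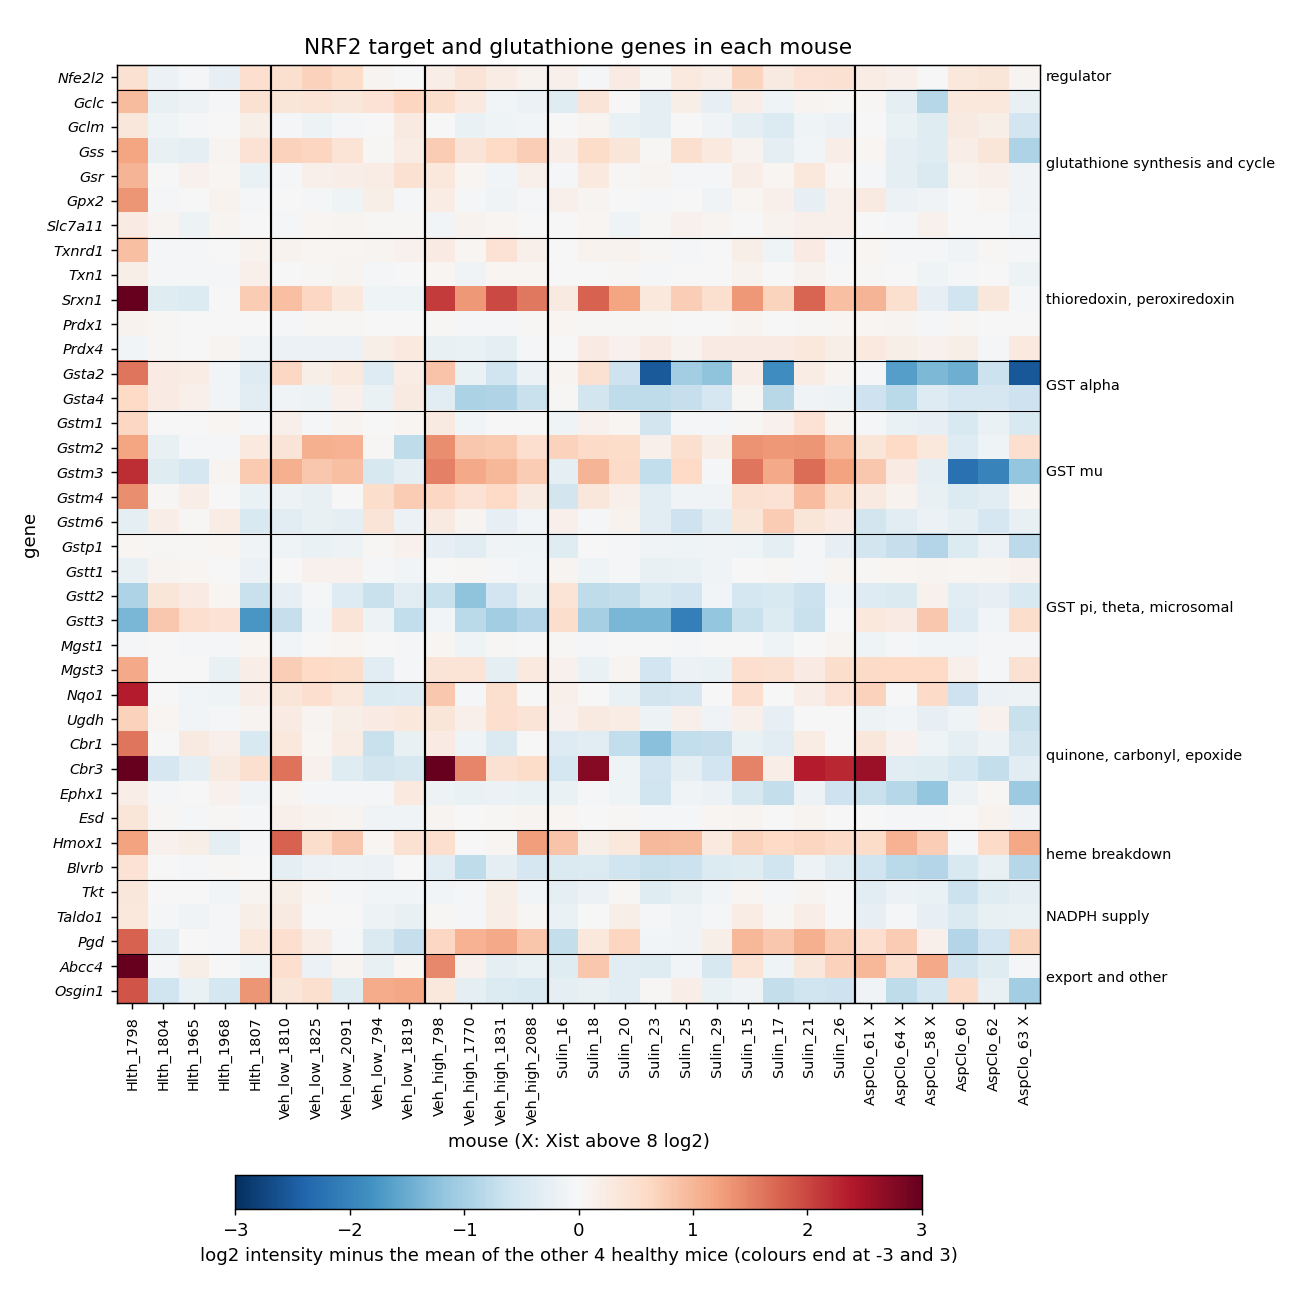
Log2 intensity of the 38 members (rows, by role) in each of 30 mice (columns, by group), minus the mean of the other 4 healthy mice, with colours ending at -3 and 3 and X marking mice with Xist above 8. Hlth_1798 is the highest mouse in 27 members, and the lowest values of Gsta2 and Gstm3 fall in aspirin with clopidogrel mice (8.26 and 7.80).

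**Figure D3:**
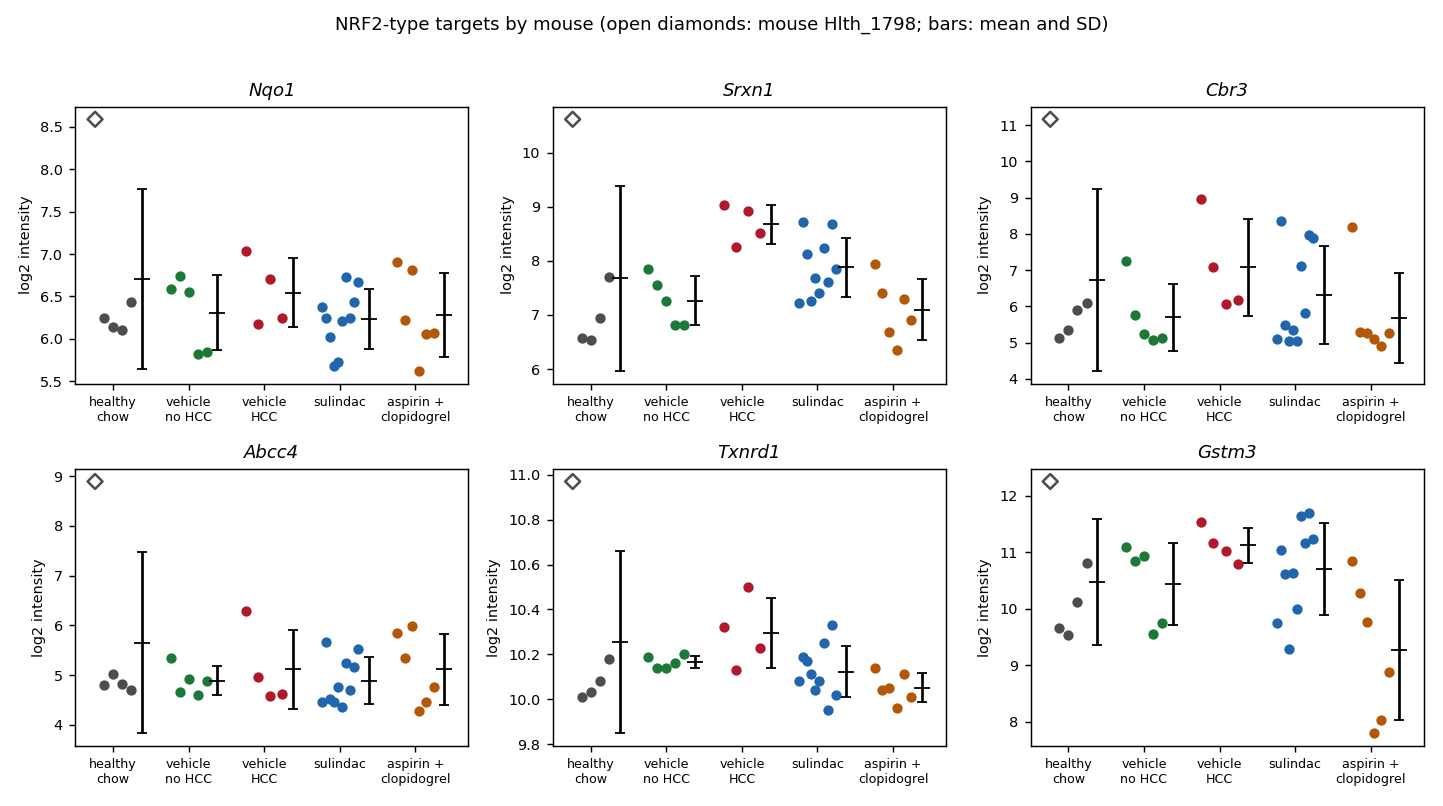
Log2 intensity of 6 NRF2-type targets in each mouse by group, with the mean and SD beside each group and Hlth_1798 as an open diamond. Hlth_1798 is the highest of all 30 mice in each panel.

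Among the regulators, Nfe2l2 was 10.16, 9.51, 9.64, 9.45 and 10.19 in healthy livers, where Hlth_1798 and Hlth_1807 were the high pair. Vehicle livers without HCC had 10.17, 10.40, 10.24, 9.79 and 9.72, and the low pair was Veh_low_794 and Veh_low_1819. The change from healthy to vehicle was 0.21 (SE 0.127, limma adjusted p = 0.832). A second, dim Nfe2l2 probe set (mean 5.28) gave 0.38 (unadjusted limma p = 0.00296), and 0.53 for vehicle with HCC against healthy (unadjusted limma p = 0.000815), where the first gave 0.13. Without Hlth_1798, Hlth_1807, Veh_low_794 and Veh_low_1819 the change of the first probe set was 0.54 (SE 0.109, limma adjusted p = 0.00382). These arrays were selected by their position in the same data, so leaving them out sets the groups further apart by construction, and 5.61% of all genes then passed. Under that choice 4 members were higher in vehicle, Nfe2l2, the glutathione synthetase Gss (0.75), Srxn1 (1.51) and Gstm2 (0.96), and Gstt2 was lower (-0.71).

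The genes of glutathione synthesis and its cycle gave no member past the threshold in any of the 9 comparisons. Gclc, the catalytic subunit of the rate-limiting glutamate cysteine ligase, was 11.71 ± 0.12 (SD, n = 5) in vehicle without HCC, 11.41 ± 0.33 (n = 4) with HCC, 11.26 ± 0.24 (n = 10) with sulindac and 11.15 ± 0.44 (n = 6) with aspirin and clopidogrel. Healthy livers averaged 11.46 ± 0.50 (n = 5), with Hlth_1798 at 12.21 and the others at 11.04 to 11.72. Gclc changed by -0.32 with sulindac (SE 0.15, limma adjusted p = 0.456) and by -0.42 with aspirin and clopidogrel (SE 0.172, limma adjusted p = 0.229). In the second arm AspClo_60 and AspClo_62 both had 11.58, above the other 4 mice (10.42 to 11.30), and from them alone the change was 0.01.

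Gclm, the modifier subunit of the same ligase, stayed within 0.12 of its comparison group in all 5 main comparisons, though AspClo_60 and AspClo_62 alone were 0.27 above vehicle (SE 0.113, limma adjusted p = 0.569). Its levels ran from 9.93 in AspClo_63 to 10.85 in Hlth_1798. Gss, which completes glutathione, was 7.61 to 8.89 with aspirin and clopidogrel (median 8.42) and 8.57 to 9.30 in vehicle livers. The change was -0.66 (SE 0.19, limma adjusted p = 0.0694), and -0.22 from AspClo_60 and AspClo_62 alone. Glutathione reductase, Gsr, spanned 9.13 to 10.58, with a largest main change of -0.26, with aspirin and clopidogrel, which was -0.03 from the mice without high Xist. Gpx2, a selenium-dependent glutathione peroxidase of epithelia, was 5.91 in Hlth_1798 and at most 4.84 in the other mice. The cystine importer subunit Slc7a11 lay at 4.24 to 4.66 in all mice, near the low end of the array, where background signal compresses changes.

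Prdx4, a peroxiredoxin of the endoplasmic reticulum, was the member that rose with both drugs. Vehicle livers without HCC had 10.59, 10.60, 10.59, 10.94 and 11.06, and those with HCC had 10.55, 10.56, 10.49 and 10.72. Sulindac livers ran from 10.76 to 11.09 with a median of 11.00, and aspirin with clopidogrel livers from 10.74 to 11.05 with a median of 10.94. The highest vehicle values were those of Veh_low_794 and Veh_low_1819, and the drug and vehicle groups overlapped through them.

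Prdx4 rose by 0.28 with sulindac (SE 0.058, fold 1.21, limma adjusted p = 0.0327), and by 0.26 with aspirin and clopidogrel (SE 0.0665, limma adjusted p = 0.0397). The comparisons share the 9 vehicle mice, so these are not independent. Leaving out 1 mouse ended the sulindac call in 10 of 19 cases (highest limma adjusted p = 0.0704) and the other in 11 of 15 (0.129). Without Hlth_1798, Hlth_1807, Veh_low_794 and Veh_low_1819 the sulindac change was 0.37 (limma adjusted p = 0.000145). That choice drops the vehicle mice with the highest Prdx4, so it widens the difference by construction and does not strengthen the call. In the aspirin with clopidogrel mice without high Xist the change was 0.17 (SE 0.101, limma adjusted p = 0.723). Prdx4 did not pass against healthy livers (10.66 to 10.85), at 0.21 for sulindac (limma adjusted p = 0.106). Summed red blood cell genes, mostly Hba-a1 and Hbb-b2, were higher in the same arms, while Alas2 was not, as given above. Their part in this result was not tested.

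Srxn1, which reduces overoxidised peroxiredoxins, separated the vehicle groups. Mice with HCC had 9.03, 8.25, 8.92 and 8.52, and mice without HCC had 7.85, 7.56, 7.25, 6.82 and 6.82. The groups did not overlap, and the change was 1.42 (SE 0.533, 95% interval 0.33 to 2.51), but it did not pass (limma adjusted p = 0.403, unadjusted p = 0.0129). Healthy livers, which share the estimate of spread, had 10.62 in Hlth_1798 and 6.54 to 7.71 in the others. Over the alternative analyses the adjusted p ran from 0.211 to 0.506, and to 0.661 with 1 mouse left out. Sulindac livers spanned 7.22 to 8.72 and aspirin with clopidogrel livers 6.35 to 7.95, a change from vehicle of -0.01 and -0.79, with neither past the threshold. The second was -1.07 in the mice without high Xist (SE 0.649).

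Txnrd1, the cytosolic thioredoxin reductase, was 10.97 in Hlth_1798 and 9.95 to 10.50 in the other 29 mice. Its largest main change was -0.17, with aspirin and clopidogrel (-0.19 in the mice without high Xist). Thioredoxin itself, Txn1, ran from 11.98 to 12.30, and Prdx1, the abundant cytosolic peroxiredoxin whose promoter is shown above, only from 12.49 to 12.63. Prdx1 was among the brightest transcripts of the array (percentile 99.7 by mean intensity), where saturation can compress changes.

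In the alpha class of glutathione S-transferases, Gsta4, which conjugates the lipid peroxidation product 4-hydroxynonenal, was followed from healthy liver to liver with HCC. Healthy livers had 11.52, 11.16, 11.06, 10.83 and 10.61. Vehicle livers without HCC had 10.80, 10.76, 11.06, 10.72 and 11.19, and those with HCC 10.61, 9.96, 10.01 and 10.25. Every mouse with HCC lay below every mouse without HCC.

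The HCC change in Gsta4 was -0.70 (SE 0.187) and did not pass (limma adjusted p = 0.179, unadjusted p = 0.000883). Members whose vehicle groups did not overlap numbered 4 of 38, Srxn1 and Pgd higher with HCC, Gsta4 and Ephx1 lower, against 3% of all genes. Gsta4 fell against healthy by 0.55 with sulindac (SE 0.153, limma adjusted p = 0.0467) and by 0.69 with aspirin and clopidogrel (SE 0.169, limma adjusted p = 0.0203). From AspClo_60 and AspClo_62, both at 10.41, the second change was -0.62 (limma adjusted p = 0.484). Leaving out 1 mouse ended the sulindac call in 10 of 15 cases (highest adjusted p = 0.134) and the other call in 3 of 11 (0.0589, without Hlth_1798, Hlth_1804 or AspClo_64). Vehicle livers showed a fall of Gsta4 as well, with changes against healthy of -0.13 without HCC and -0.83 with HCC (unadjusted limma p = 0.000134). Against vehicle, Gsta4 changed by only -0.11 with sulindac and -0.25 with aspirin and clopidogrel, and neither passed. Against healthy, 2 of 38 members passed for sulindac (2.98% of all genes) and 5 for aspirin with clopidogrel (2.77%), all lower, while 0 passed for vehicle without HCC (0%) and 0 for vehicle with HCC (0.0994%).

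Gsta2 was the most variable alpha-class gene in the drug arms, at 8.28 to 11.27 with sulindac and 8.26 to 10.78 with aspirin and clopidogrel, against 10.20 to 11.66 in vehicle livers. Its change was -1.37 with aspirin and clopidogrel (SE 0.415, limma adjusted p = 0.0837) and -1.15 without the 4 mice with high Xist. Its second probe set gave -0.92 over all 6 mice. Between the drug arms it gave 0.07 and the first -0.66, so the probe sets disagreed there. With sulindac against vehicle the first gave -0.71 (unadjusted limma p = 0.0585), and the second fell further (unadjusted limma p = 0.00302). Against healthy with sulindac they gave -0.94 and -1.61 (unadjusted limma p = 0.037 and 0.000145). With aspirin and clopidogrel against healthy they gave -1.61 and -1.54 (unadjusted limma p = 0.00221 and 0.000724). The first, which stood for the gene, had no limma adjusted p under 0.0658 in the 9 comparisons.

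The mu class had no member past the threshold, and its genes are close paralogs whose probe sets can read several transcripts. Gstm3 showed the widest spread among these genes in the drug arms. With aspirin and clopidogrel it was 10.85, 10.28, 9.77, 7.80, 8.03 and 8.88, in the order AspClo_61, AspClo_64, AspClo_58, AspClo_60, AspClo_62 and AspClo_63. The lowest pair of all 30 mice was therefore AspClo_60 and AspClo_62, the mice without high Xist. Sulindac livers ran from 9.28 to 11.70 with a median of 10.83.

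The Gstm3 change was -1.47 against vehicle (SE 0.46, limma adjusted p = 0.095) and -1.44 against sulindac (SE 0.451, limma adjusted p = 0.142). Restricted to AspClo_60 and AspClo_62 it was -2.83 against vehicle (SE 0.589, limma adjusted p = 0.0731) and -2.79 against sulindac (SE 0.583, limma adjusted p = 0.0382). A second Gstm3 probe set gave -1.50 and -1.51 with all 6 mice. Gstm1 changed by -0.31 and Gstm6 by -0.28 against vehicle, and Gstm6 by -0.42 against sulindac (limma adjusted p = 0.246). In the mice without high Xist these were -0.37, -0.33 and -0.46. Gstm2 was 8.41 to 10.57 and Gstm4 8.59 to 10.52 over all mice, with main changes between -0.55 and 0.52 and between -0.40 and 0.30.

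Gstp1, the pi-class transferase, gave the smallest p of any member. Vehicle livers had 12.92, 12.85, 12.91, 13.09 and 13.19 without HCC and 12.82, 12.72, 12.95 and 12.93 with HCC. Sulindac livers ran from 12.69 to 13.05 (median 12.94). With aspirin and clopidogrel it was 12.51, 12.38, 12.19 and 12.28 in the 4 mice with high Xist, and 12.66 and 12.88 in AspClo_60 and AspClo_62. The 4 lay below every other mouse in the study, and the other pair lay within the range of vehicle livers or just under it.

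Over all 6 mice Gstp1 fell by 0.45 against vehicle (SE 0.0788, fold 0.733, limma adjusted p = 0.00289), by 0.43 against sulindac (SE 0.0772, limma adjusted p = 0.00616) and by 0.59 against healthy (SE 0.0905, limma adjusted p = 0.00037). The mice without high Xist alone gave changes of -0.16 (limma adjusted p = 0.704), -0.15 (0.622) and -0.30 (0.303). No single mouse left out ended any of these calls. With sulindac Gstp1 changed by -0.01 against vehicle. Gstp1 was brighter than Prdx1 on average (percentile 99.8), so its changes too can be compressed by saturation.

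Among the theta class, Gstt3 was 8.93 to 10.12 with aspirin and clopidogrel and 7.26 to 9.83 with sulindac, a difference of 1.06 (SE 0.355, limma adjusted p = 0.183), and 0.58 from AspClo_60 and AspClo_62. Among healthy mice Gstt3 was 10.12, 9.82 and 9.74 in 3 mice and 7.94 and 7.57 in Hlth_1798 and Hlth_1807. The same pair of healthy mice was low for Gstt2, with 9.48 in Hlth_1798 and 9.74 in Hlth_1807, and 10.46 to 10.78 in the others. Gstt1 (11.50 to 11.87), Mgst1 (12.97 to 13.19) and Mgst3 (8.84 to 10.56) did not pass anywhere.

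**Figure D4:**
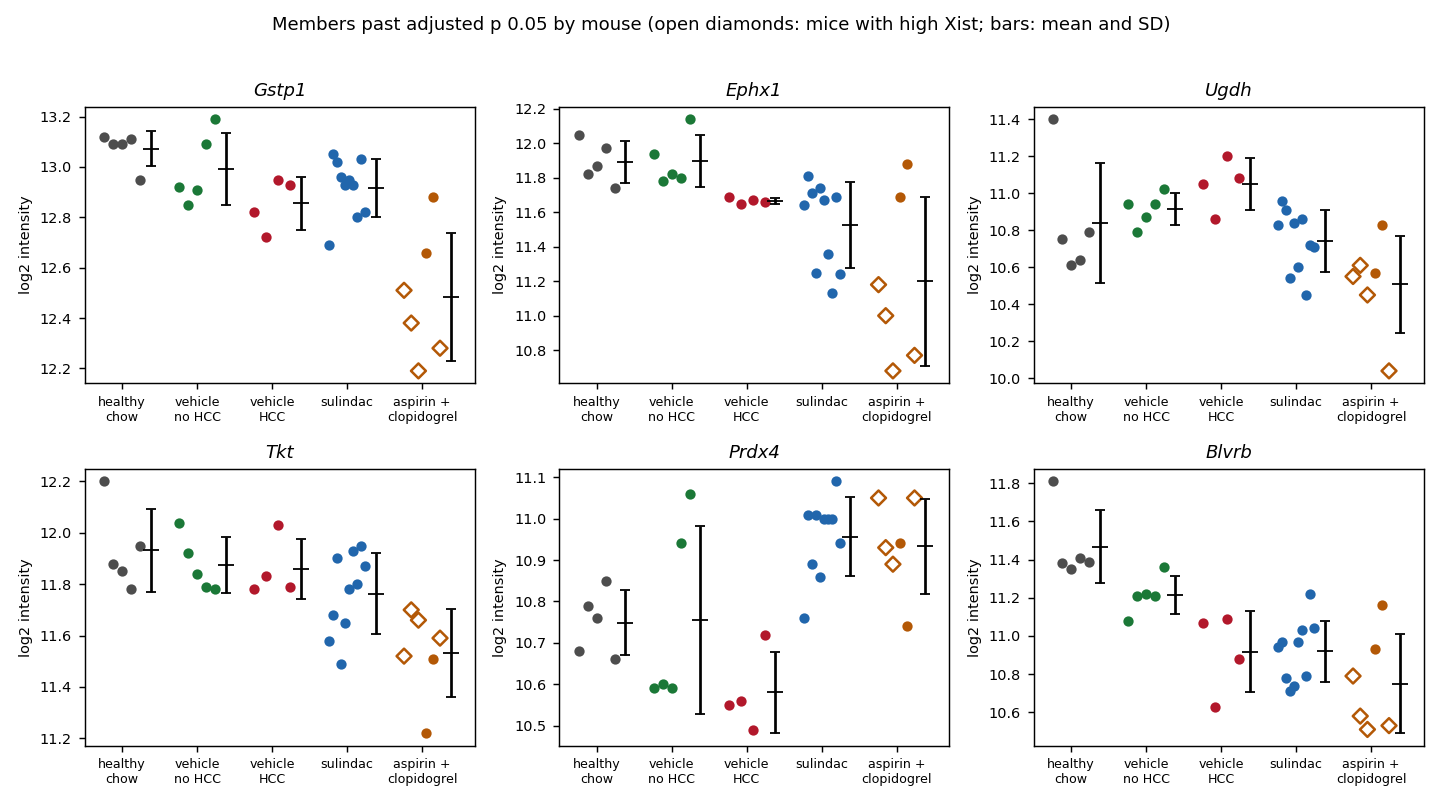
Log2 intensity of 6 members in each mouse by group, with the mean and SD beside each group and the 4 mice with high Xist as open diamonds. These 4 mice are the lowest of all 30 for Gstp1 and lie below AspClo_60 and AspClo_62 for Ephx1 and Blvrb.

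Among the enzymes of quinones, carbonyls and epoxides, Ephx1 and Ugdh fell with aspirin and clopidogrel. Ephx1, the microsomal epoxide hydrolase, was 11.18, 11.00, 10.68 and 10.77 in the 4 mice with high Xist and 11.69 and 11.88 in AspClo_60 and AspClo_62. Vehicle livers had 11.94, 11.78, 11.82, 11.80 and 12.14 without HCC and 11.69, 11.65, 11.67 and 11.66 with HCC. The mice without high Xist lay inside the vehicle range.

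Ephx1 fell by 0.60 against vehicle over all 6 mice (SE 0.14, limma adjusted p = 0.0241) and by 0.69 against healthy (SE 0.161, limma adjusted p = 0.0153). From AspClo_60 and AspClo_62 the changes were -0.01 (SE 0.142, 95% interval -0.30 to 0.28) and -0.11. The vehicle call ended when any of the 4 mice with high Xist was left out (highest adjusted p = 0.0888, limma), and the healthy call when AspClo_58 was (0.0509). Against sulindac the sign turned, from -0.32 with all 6 mice to 0.26. Sulindac livers ran from 11.13 to 11.81, a change of -0.27 from vehicle that did not pass (limma adjusted p = 0.429).

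Ugdh was 10.55, 10.61, 10.45 and 10.04 in the 4 mice with high Xist and 10.57 and 10.83 in the others of that arm. Vehicle livers had 10.94, 10.79, 10.87, 10.94 and 11.02 without HCC and 11.05, 10.86, 11.20 and 11.08 with HCC. Ugdh fell by 0.46 (SE 0.107, limma adjusted p = 0.0207), and was -0.27 from AspClo_60 and AspClo_62 (SE 0.146, limma adjusted p = 0.684). The call ended without AspClo_58 (limma adjusted p = 0.0572) or AspClo_63 (0.0685). With sulindac the change was -0.23 (SE 0.093, limma adjusted p = 0.359). The carbonyl reductase Cbr1 (9.10 to 11.97), the esterase Esd (12.06 to 12.51), Cbr3 and Nqo1 did not pass in any comparison.

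Nqo1 changed by -0.29 between healthy and vehicle, 0.24 with HCC, -0.18 with sulindac and -0.13 with aspirin and clopidogrel, which was -0.57 in the mice without high Xist (SE 0.428, limma adjusted p = 0.798). Cbr3 had the widest error of the members, at 1.38 for HCC with a 95% interval that reached from -0.63 to 3.38.

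In heme breakdown, Blvrb, the biliverdin reductase B, had its highest group mean in healthy liver (11.47 ± 0.19, SD, n = 5). Healthy livers had 11.81, 11.38, 11.35, 11.41 and 11.39. Vehicle livers had 11.08, 11.21, 11.22, 11.21 and 11.36 without HCC and 11.07, 10.63, 11.09 and 10.88 with HCC. Sulindac livers ran from 10.71 to 11.22 (median 10.95), and aspirin with clopidogrel livers from 10.51 to 11.16 (median 10.68). No liver of either drug arm reached the lowest healthy value, and among vehicle livers only Veh_low_1819 (11.36) did. Of all genes, 1.32% separated sulindac from healthy livers without overlap in either direction, and 2.01% separated aspirin with clopidogrel.

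Blvrb fell against healthy by 0.55 with sulindac (SE 0.1, fold 0.684, limma adjusted p = 0.00241) and by 0.72 with aspirin and clopidogrel (SE 0.111, limma adjusted p = 0.000378). The vehicle change was -0.38 (SE 0.102, limma adjusted p = 0.274), -0.25 without HCC and -0.55 with HCC (limma adjusted p = 0.0595). The sulindac call held without each mouse in turn (highest adjusted p = 0.00933). Without the 4 mice with high Xist, the change against healthy was -0.43 (SE 0.136, limma adjusted p = 0.303). Against vehicle, Blvrb changed by -0.34 with aspirin and clopidogrel (limma adjusted p = 0.068) and by -0.04 from those 2 mice. Blvrb is also abundant in red blood cells, whose summed genes, mostly Hba-a1 and Hbb-b2, were higher in the drug arms. Alas2 was not higher there, and had its lowest group mean with aspirin and clopidogrel (7.96). The part of red blood cell genes in this result was not tested.

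Hmox1, the inducible heme oxygenase, ran from 6.18 to 8.22, highest in Veh_low_1810, and changed by 0.36 on the diet, with no adjusted p under 0.516 in the 9 comparisons by limma. Hlth_1798 had 7.66 and the other healthy mice 6.18 to 6.62.

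Among the genes of NADPH supply, Tkt, the transketolase of the pentose phosphate pathway, fell with aspirin and clopidogrel. Its levels were 11.52, 11.70, 11.66 and 11.59 in the 4 mice with high Xist and 11.22 and 11.51 in AspClo_60 and AspClo_62. Vehicle livers had 12.04, 11.92, 11.84, 11.79 and 11.78 without HCC and 11.78, 11.83, 12.03 and 11.79 with HCC. All 6 mice lay below all 9 vehicle mice, a separation that 0.392% of all genes showed in either direction.

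Tkt fell by 0.33 (SE 0.0776, limma adjusted p = 0.0228) against vehicle and by 0.40 against healthy (SE 0.0891, limma adjusted p = 0.0116). The vehicle call ended without AspClo_60 (limma adjusted p = 0.051) or AspClo_61 (0.0571). The mice without high Xist alone gave larger values, at -0.50 (SE 0.113, limma adjusted p = 0.115) and -0.57 (SE 0.121, limma adjusted p = 0.0441). Taldo1, the transaldolase of the same pathway, changed by -0.25 against vehicle (SE 0.0751, limma adjusted p = 0.0843) and by -0.26 against sulindac (SE 0.0736, limma adjusted p = 0.0942), and by -0.34 and -0.35 from those 2 mice.

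Pgd, the phosphogluconate dehydrogenase that yields NADPH, was 9.90, 10.31, 10.41 and 10.11 in vehicle livers with HCC and 9.77, 9.50, 9.25, 8.83 and 8.59 without HCC. The groups did not overlap, and the change was 0.99 (SE 0.387, limma adjusted p = 0.419). Its lowest values of all mice were 8.40 in AspClo_60, 8.56 in Sulin_16 and 8.59 in Veh_low_1819. The change with aspirin and clopidogrel was -0.24 over 6 mice and -1.08 from AspClo_60 and AspClo_62 (SE 0.421, limma adjusted p = 0.522).

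Of the last pair, Abcc4, which exports conjugates and cyclic nucleotides into blood, lay at 4.28 to 6.28 in 29 mice and at 8.89 in Hlth_1798. Osgin1, an oxidative stress-induced growth inhibitor, was 10.98 and 10.40 in Hlth_1798 and Hlth_1807 and 10.20 and 10.24 in Veh_low_794 and Veh_low_1819, and at most 9.65 in the other mice. Its changes were -0.75 with HCC, -0.50 with sulindac and -0.56 with aspirin and clopidogrel, with none past the threshold. In the mice without high Xist the last was -0.04 (SE 0.466).

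Beyond the members, 104 other genes of the same pathways were measured. Against vehicle, 1 of them rose and 0 fell with sulindac (0.199% of all genes passed), and 1 rose and 7 fell with aspirin and clopidogrel (1.96%, and 3.42% of the brighter genes). Between vehicle and healthy and between the vehicle groups 0 passed, and at an unadjusted p under 0.05 the counts in limma were 10 (6.73% of all genes) and 7 (8.87%). The gene that rose in both arms was Nnt, the mitochondrial transhydrogenase that makes NADPH. It was 10.55 to 10.87 in all sulindac livers, 10.65 to 10.92 in the 4 mice with high Xist, 9.70 and 9.92 in AspClo_60 and AspClo_62, and 9.14 to 10.01 in the other livers. Its changes were 0.97 with sulindac (limma adjusted p = 0.000145) and 0.73 with aspirin and clopidogrel (limma adjusted p = 0.00871), and 0.10 from AspClo_60 and AspClo_62. Wdfy1, a gene outside these pathways, also set the sulindac livers (7.5 to 8.04) apart from vehicle livers (4.8 to 5.7). It was mixed with aspirin and clopidogrel (5.04 to 7.85). The labels give no strain or batch, and the part of either in these differences was not tested.

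The 7 genes that fell were Aox1 (-0.95), Abcg2 (-0.96), Entpd5 (-0.47), Gpx4 (-0.46), Glrx5 (-0.26), Aldh1a1 (-0.22) and Slc25a39 (-0.11), each with a limma adjusted p between 0.000771 and 0.0441. Aox1, the aldehyde oxidase, was 9.08 to 9.78 in the 4 mice with high Xist and 10.22 and 10.28 in the others of that arm. Abcg2, a drug and urate exporter, was 8.91 to 9.11 in those 4 and 9.87 and 10.51 in the others. In the latter pair their changes were -0.37 and -0.16. Gpx4, the peroxidase of lipid hydroperoxides, changed by -0.31 and Slc25a39, the mitochondrial glutathione importer, by -0.12 there, with Entpd5 at -0.23, Glrx5 at -0.15 and Aldh1a1 at -0.02, and none of the 7 passed. Against sulindac, Abcg2 (-0.96, limma adjusted p = 0.00604) and Aox1 (-0.60, limma adjusted p = 0.0339) were lower. Below adjusted p 0.05 no other pathway gene passed in a main comparison, and those with the smallest unadjusted p included Cbs (0.58) and Mafg (-0.37) on the diet, Fech (-0.25) with HCC, Akr1b8 (0.40) with sulindac, Gsk3b (-0.37) with aspirin and clopidogrel and Msrb2 (-0.49) between the drug arms.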

How the data were processed

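RNA from non-tumour liver of 30 mice was hybridised to Affymetrix HT MG-430 PM arrays. The deposited values are linear intensity, which the authors normalised by RMA with quantile normalisation, per the labels and the series design text; versions are not given in the sources used here. The design text lists 4 vehicle mice and the labels 9. Log2 was taken here, and 1 probe set per gene (highest mean over all arrays, among 28898 probe sets with a single symbol) gave 17097 genes. Array medians ran from 24.1 to 24.6, and the number of arrays limits the precision.

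All 30 mice entered 1 limma fit (version 3.58.1, R 4.3.3) of 5 group means with 25 residual degrees of freedom, and vehicle was the mean over its 9 mice. P-values were adjusted by Benjamini-Hochberg over all genes within each of 9 comparisons and measure the spread between mice. On simulated data with 17097 genes, 67% of changes of 0.5 and 93.7% of changes of 1 were recovered for aspirin with clopidogrel against vehicle. The changed genes were drawn from the brighter genes, with independent normal noise and no mix of mice within an arm. These shares are averages over such genes and do not hold for each member, as spreads differ widely.

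The members and lists were chosen with earlier results of these data known. Named members passed adjusted p 0.05 in any comparison, were among the 6 with the smallest unadjusted p under 0.05 in a main comparison, or belonged to a fixed set of core NRF2 genes; other members are given by range. Alternatives are in the closing section; leaving out the 4 mice with high Xist was added after the data were examined.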

Additional observations from a re-analysis of the deposited data

Results flagged for a closer look

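In 20 genes and 100 groups of 4 to 10 mice, 9 groups held a mouse far from the rest by Dixon's criterion, where chance gives about 1 in 20. Hlth_1798 was the distant healthy mouse for 6 genes, at 8.59 for Nqo1, 10.97 for Txnrd1, 10.62 for Srxn1, 11.40 for Ugdh, 11.05 for Pgd and 11.81 for Blvrb, each time as the highest. The nearest healthy mouse was at 6.43, 10.18, 7.71, 10.79, 9.60 and 11.41 for these genes.

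Hlth_1807 was the low healthy mouse for Gstp1 (12.95 against 13.09 in the nearest). Among vehicle livers without HCC, Veh_low_1819 was high for Gclc (11.92 against 11.70) and Veh_low_794 for Gstm6 (9.36 against 8.79).

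The drug arms differed in Gstp1, with aspirin and clopidogrel 0.43 below sulindac, a difference of -0.43 tested directly by limma (adjusted p = 0.00616). From AspClo_60 and AspClo_62 alone it was -0.15 (limma adjusted p = 0.622).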

How the results depend on the processing

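No paired analysis was possible because the groups share no replicate numbers. The members' changes past adjusted p 0.05 kept their sign under the alternatives run. Among changes that had not passed, the sign turned without the 4 mice with high Xist for Ephx1 against sulindac (-0.32 to 0.26), and for Gclc (-0.42 to 0.01) and Gclm (-0.06 to 0.27) against vehicle, among other members. Counts of members past adjusted p 0.05 that moved by over 1.5 times are as follows. Sulindac against vehicle went from 1 to 0 when only the groups compared were fitted, with arrays centred, with the probe set of largest spread, with 12 subtracted before log2, and against either vehicle group alone. Aspirin with clopidogrel against vehicle went from 5 to 1 with only the groups compared, to 3 against vehicle without HCC, to 2 against vehicle with HCC and to 0 without the 4 mice with high Xist. Against healthy it went from 5 to 1 with only the groups compared and to 1 without those 4 mice.

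Without Hlth_1798, Hlth_1807, Veh_low_794 and Veh_low_1819 the counts were 5 for vehicle against healthy, 9 for aspirin with clopidogrel against vehicle, 2 against sulindac, 1 for vehicle without HCC and 5 for vehicle with HCC against healthy, and 5 for sulindac against healthy. Vehicle with HCC against healthy went from 0 to 2 among brighter genes and to 1 with a variance trend, which took sulindac against healthy from 2 to 1.

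Leaving out 1 mouse gave 0 to 0 members for vehicle against healthy, 0 to 0 for HCC, 0 to 1 for sulindac, 2 (without AspClo_61) to 7 (without AspClo_62) for aspirin with clopidogrel against vehicle and 1 to 1 against sulindac. Against healthy it gave 0 to 0 for vehicle without HCC, 0 to 2 (without Hlth_1807) for vehicle with HCC, 1 (without Hlth_1798) to 3 (without Hlth_1807) for sulindac and 4 to 6 for aspirin with clopidogrel. Over all genes, aspirin with clopidogrel against vehicle had 335 calls, 123 to 571 with 1 mouse left out and 7 to 819 under the other alternatives, and vehicle against healthy had 2, with 1 to 36 and 0 to 959. Signals near the low end of the array, as for Slc7a11 and Gpx2, limit what could be seen.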

Other observations

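Against healthy livers, Cbs was higher with both drugs. Cbs is the cystathionine beta-synthase that feeds cysteine to glutathione. It rose by 0.66 with sulindac (limma adjusted p = 0.0117) and by 0.91 with aspirin and clopidogrel (limma adjusted p = 0.00167), and was 0.58 higher in vehicle livers (limma adjusted p = 0.274). Healthy livers had 9.87, 9.65, 9.65, 9.82 and 9.19. The 4 mice with high Xist had 10.86, 10.63, 10.61 and 10.76, above AspClo_60 and AspClo_62 at 10.31 and 10.10, and the change from that pair alone was 0.57 (SE 0.215, limma adjusted p = 0.446). Msrb2, a methionine sulfoxide reductase, was higher by 0.71 with sulindac (limma adjusted p = 0.00339), and Slc3a2, the partner chain of the cystine importer, changed by -0.41 (limma adjusted p = 0.0451). Slc6a9, a glycine transporter, changed by -1.03 with aspirin and clopidogrel (limma adjusted p = 0.0308), and by -0.72 from AspClo_60 and AspClo_62 alone (SE 0.37, limma adjusted p = 0.672). Vehicle livers differed from healthy in the same directions. Their means without and with HCC were 6.05 and 6.31 for Msrb2 (healthy 5.80) and 8.30 and 8.35 for Slc3a2 (healthy 8.61). For Slc6a9 they were 6.25 and 6.29 (healthy 6.86). Slc3a2 was 9.28 in Hlth_1798 and 8.16 to 8.59 in the other healthy mice.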
